A study of Xenopus laevis with 90 samples.

Results

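The transcripts described here encode the proteins that license and start DNA replication in *Xenopus laevis* embryos. Members were the entries of both expression tables whose symbol, without the ending .L or .S, begins with mcm, orc, gins, rfc, rpa, pola, pold, pole or prim followed by a digit, or is one of 15 single names from cdc6 and cdt1 to fen1 and lig1. The rule found 69 of 36504 genes listed in both tables, carrying 53 names, of which 16 were present as an L and an S copy (the homeologs on the long and short chromosomes of this allotetraploid frog) and 37 as a single copy. Of the single names, 1 (recql4) matched no entry and was not analysed here, and mcm3ap.L, a nuclear export factor gene, was caught only by the letters of its symbol. Of the 69 members, 68 passed the filter on low values in each frog. The exception was mcm5.S, with a mean of at most 0.646 TPM in any wild type group (TPM, the deposited unit, is the abundance of a transcript per length, relative to the total of its library).

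Replication origins are licensed when the origin recognition complex (ORC), Cdc6 and Cdt1 load the MCM2-7 helicase onto DNA, and Geminin blocks Cdt1 afterwards so that no origin is licensed again in the same cycle. The kinase Cdc7 with its partner Dbf4, together with TopBP1, Treslin (ticrr) and Mtbp, then turns the loaded helicase into the active complex of Cdc45, MCM and GINS, behind which the polymerases, the clamp Pcna and the single-strand binding protein RPA copy the DNA. *Xenopus* eggs hold large maternal stores of these proteins and messages for the fast cleavage cycles, and shortage of a few firing factors is known from this frog as a trigger of the slower cycles at the mid-blastula transition, when the zygotic genome is activated (ZGA).

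Total RNA, depleted of ribosomal RNA, was sequenced from whole embryos at 5.5, 6.5 and 7.5 h post fertilization (hpf), in 5 conditions, with 3 pools of 3 sibling embryos per group from each of 2 frogs, 90 libraries in all. Wt-IAA embryos were not injected. Treated embryos received 11 ng Kdm5bwt (an H3K4 demethylase), 345 pg of the methylation-resistant histone mutant H3.3K4M and 5 ng TIR1 mRNA at the 1-cell stage, and control embryos 4 ng of catalytically inactive Kdm5bci, 345 pg H3.3wt and 5 ng TIR1 mRNA. Embryos named +IAA were moved at 4.5 hpf into 500 μM auxin, which through TIR1 brings about degradation of the degron-tagged proteins, and those named -IAA never met auxin. Treated+IAA against Control+IAA is called the window comparison and Treated-IAA against Control-IAA the persistent one. The genotype of all embryos was wild type, and treated and control differed in the amount of Kdm5b mRNA besides its activity. Each frog was tested on its own, so P-values measure the spread between pools of siblings of one frog, and the second frog is the repeat. TPM keep no sequencing depth, which is therefore unknown.

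Values are TPM rescaled between the libraries of a frog, and log2 changes are on the log2(rescaled TPM + 1) scale, which understates changes of low transcripts. A member is said to have risen or fallen only where the Benjamini-Hochberg adjusted P of the limma test over all genes was under 0.05. The libraries of frog 1 and frog 2 had between 16712 and 19177 and between 17576 and 18386 genes at 1 TPM or more, scaling factors of 0.659 to 1.40 and 0.661 to 1.38, and between 4.04 and 37.4% and between 1.77 and 15.6% of their TPM on ribosomal RNA. A globin transcript, hbg1.L, which marks injected libraries, was at most 0.829 TPM in uninjected libraries and at least 1844 TPM in every injected one. In frog 1, 9 maternal markers of the blastula summed to 1036 to 1135 TPM at 5.5 hpf and 932 to 1086 TPM at 7.5 hpf. They did not move alike: cpeb1.L fell (-1.17 and -1.42 on the log2 scale in frog 1 and frog 2) and vegt.S rose (0.60 and 0.43). In frog 1, 13 zygotic markers such as sia1 and nodal5 went from at most 23.4 TPM to at least 1024 TPM. Markers of adult tissues summed to at most 10.8 TPM in any library.

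At 5.5 hpf the members were abundant messages. Their median in wild type embryos was 44.4 TPM in frog 1 and 38.7 TPM in frog 2, against 12.44 and 11.9 TPM for all genes tested. Of the members, 60 and 58 exceeded 10 TPM. The highest was gmnn.L, one copy of the Geminin gene, at 408 ± 11.3 TPM (SD, n = 3) in frog 1 and 374 ± 19.9 TPM in frog 2, and the licensing factors as a class were high, their lowest member cdt1.S standing at 153 and 119 TPM. The helicase genes spanned the widest range, from mcm7.L at 230 and 213 TPM down to mcm5.S at 0.219 and 0.388 TPM. Firing factors were scarcer, from ticrr.L at 45.4 and 37.3 TPM down to topbp1.L at 15.4 and 14.3 TPM. Within ORC the highest was the ATPase gene orc1.L at 70.8 and 65.7 TPM, and the lowest was orc5.L at 9.27 TPM in frog 1 and orc2.S at 6.68 TPM in frog 2. Among the helicase partners cdc45.L stood at 73.3 and 67.0 TPM and its S copy at 3.21 and 0.615 TPM. The kinase and the priming polymerase ranged from cdc7.L (42.2 and 39.0 TPM) to dbf4.L (86.1 and 68.5) and from prim2.S (21.1 and 14.9) to pola2.L (36.7 and 32.5). Replicative polymerases and their clamp ranged from pole3.L (19.9 and 16.6) to pole4.L (205 and 130) and from rfc5.L (10.9 and 8.83) to pcna.L (156 and 198). The remaining ones ranged from rpa1.S (23.2 and 18.6) to rpa3.L (166 and 188), from fen1.S (29.7 and 10.3) to lig1.L (55.7 and 45.4) and from mcm8.L (6.31 and 5.98) to mcm10.L (57.3 and 51.7). The single timing factor, rif1.S, stood at 92.8 and 80.1 TPM.

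Between 5.5 and 7.5 hpf most messages for origin firing and recognition fell in wild type embryos after rescaling. None of the 4 loader messages of cdc6 and cdt1 fell, too few members to tell from the 13.1% of genes that fell in both frogs. In frog 2 all 4 were lower on TPM as deposited (-0.46 to -0.65). These levels are relative to the other RNA of a library, and loss of message itself was not measured. In frog 1, 30 of 68 members fell and 8 rose, where 18.1% of all genes tested fell and 21.6% rose. In frog 2, 30 fell and 11 rose, where 22.4% of genes fell and 24.3% rose. In both frogs together 25 members (36.8%) fell in each, against 13.1% of the genes tested in both, and 5 (7.35%) rose in each, against 14% of genes. No member fell in one frog and rose in the other. The median change of the members was -0.13 and -0.11 on the log2 scale, and that of all genes 0.02 in each frog. Beside these falls, the summed level of all members went from 4713 to 4103 TPM in frog 1 and from 4271 to 3980 TPM in frog 2. In whole embryos, fewer cells of a kind and less RNA per cell cannot be told apart.

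**Figure D1:**
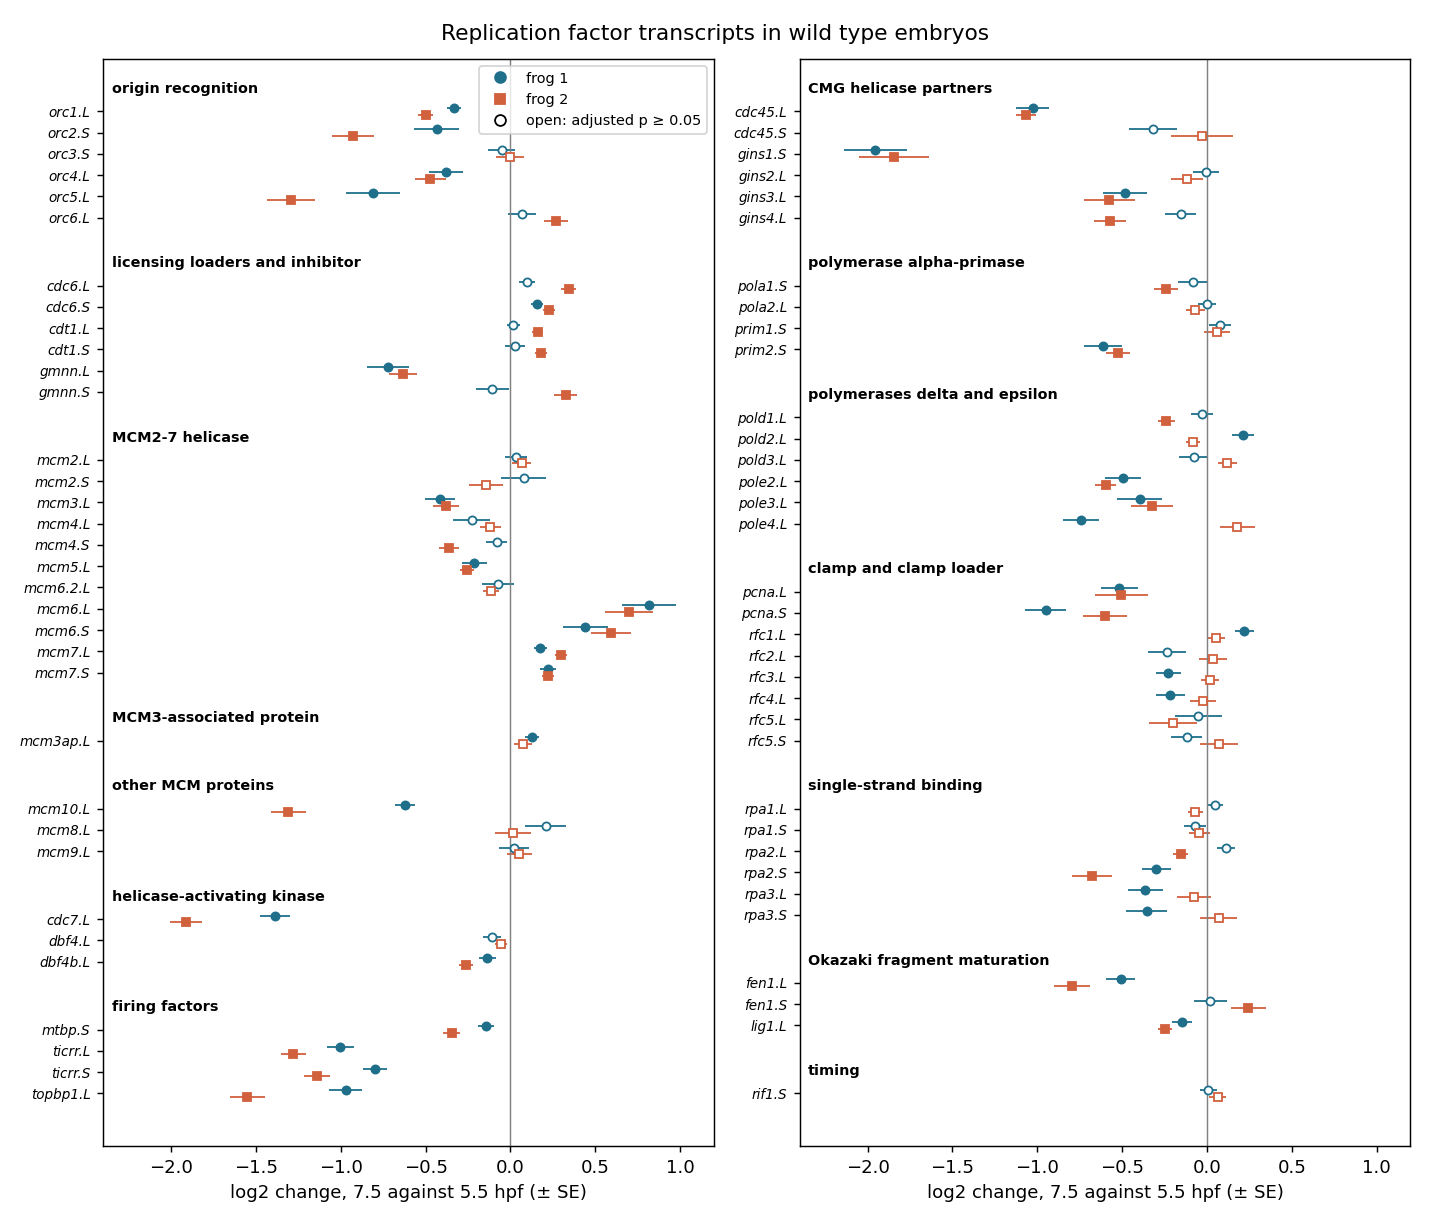
Log2 change of each of the 68 members tested between 7.5 and 5.5 hpf in wild type embryos, with its standard error, by the role of the encoded protein (frog 1 circles, frog 2 squares, filled where the adjusted P was under 0.05, open otherwise). All 4 firing factors lie left of 0 in each frog with medians of -0.88 and -1.21, and mcm6.L, mcm6.S, mcm7.L and mcm7.S lie right of it (by sign alone, on TPM as deposited 9 of the 25 members that fell were not lower in frog 1, and 3 of the 5 that rose were not higher in frog 2).

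The 4 firing factors tested fell in both frogs (13.1% of genes), with median changes of -0.88 and -1.21. For topbp1.L (chromosome 6L, 55077687 to 55136186 of the v10.1 genome), the scaffold that activates the checkpoint kinase and assembles the helicase, the libraries of frog 1 held 14.8, 15.1 and 16.2 TPM at 5.5 hpf and 7.55, 6.97 and 7.54 TPM at 7.5 hpf, and those of frog 2 held 14.7, 14.7 and 13.5 TPM and then 4.62, 4.50 and 3.61 TPM. No library at 7.5 hpf reached the lowest one at 5.5 hpf, and the log2 changes were -0.97 ± 0.10 (SE, adjusted P = 6.57e-10) and -1.55 ± 0.10 (adjusted P = 9.35e-15). Treslin, which recruits Cdc45 to the helicase, is encoded by ticrr.L (chromosome 3L, 115497752 to 115532523) and ticrr.S (chromosome 3S, 44865141 to 44913945). The ticrr.L libraries went from 43.7, 46.2 and 46.2 to 20.5, 22.5 and 23.6 TPM in frog 1 and from 39.0, 37.0 and 36.0 to 14.4, 14.8 and 15.2 TPM in frog 2. They again did not overlap, with changes of -1.003 ± 0.08 (adjusted P = 2.13e-12) and -1.28 ± 0.07 (adjusted P = 1.76e-16). Its S copy fell by 0.80 and 1.14 on the log2 scale. Treslin's partner mtbp.S fell less, by 0.14 and 0.35. On TPM as deposited its change in frog 1 was upward, at 0.28.

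In the kinase that activates the loaded helicase, the message of the catalytic subunit changed more than those of its partners. For cdc7.L (chromosome 4L, 100905801 to 100933024) the libraries of frog 1 held 43.3, 42.9 and 40.2 TPM at the first time, 28.1, 28.5 and 31.1 TPM an hour later and 14.8, 13.9 and 18.1 TPM at the last. In frog 2 they held 38.5, 37.8 and 40.6, then 22.0, 21.7 and 23.8, then 9.97, 10.3 and 8.68 TPM. The 3 times did not overlap in either frog, and the change to 7.5 hpf was -1.39 ± 0.09 (adjusted P = 1.12e-14) and -1.91 ± 0.10 (adjusted P = 4.79e-18). Of the activating subunits, dbf4.L changed by -0.11 (adjusted P = 0.103) and -0.05 (adjusted P = 0.203), and dbf4b.L (known in *Xenopus* as Drf1, the main partner in embryos) fell by 0.14 (adjusted P = 0.0305) and 0.26 (adjusted P = 3.81e-06). On TPM as deposited the dbf4b.L change in frog 1 was upward, at 0.30.

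Among the helicase partners, 3 of 6 members fell in both frogs (13.1% of genes) and none rose (14% of genes). Over both frogs the steepest fall of all members was that of gins1.S (chromosome 5S, 30482908 to 30493271), a GINS subunit. Frog 1 held 17.9, 24.8 and 15.5 TPM at 5.5 hpf and 4.46, 4.11 and 3.95 TPM at 7.5 hpf, and frog 2 held 21.9, 17.1 and 23.2 TPM and then 4.56, 5.14 and 5.33 TPM. The groups lay far apart, with changes of -1.95 ± 0.19 (adjusted P = 1.42e-10) and -1.85 ± 0.20 (adjusted P = 2.62e-09). The other GINS subunits differed among themselves: gins3.L fell by 0.48 and 0.58, gins4.L changed by -0.15 (adjusted P = 0.19) and -0.57 (adjusted P = 6.39e-06), and gins2.L by -0.01 (adjusted P = 0.964) and -0.12 (adjusted P = 0.315). The Cdc45 message cdc45.L (chromosome 1L, 167501356 to 167519264) went from 75.5, 70.8 and 73.5 to 32.5, 34.2 and 39.9 TPM in frog 1 and from 69.1, 64.4 and 67.6 to 30.9, 30.0 and 33.6 TPM in frog 2. These groups did not overlap, and the changes of -1.03 ± 0.10 (adjusted P = 8.55e-11) and -1.07 ± 0.06 (adjusted P = 7.25e-17) were close in size. Mcm10, which joins the helicase as it is activated, followed: mcm10.L (chromosome 3L, 87736484 to 87760280) went from means of 57.3 to 37.0 TPM (-0.62) and 51.7 to 20.3 TPM (-1.31), while mcm8.L and mcm9.L, helicases of recombination repair, passed the test in neither frog.

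ORC messages fell for 4 of 6 subunits in both frogs (13.1% of genes). The largest falls were those of orc5.L, whose libraries went from 9.87, 9.56 and 8.38 to 4.56, 4.33 and 5.75 TPM in frog 1 (-0.81 ± 0.16, adjusted P = 7.98e-05) and from 11.6, 14.2 and 12.2 to 3.99, 5.88 and 4.04 TPM in frog 2 (-1.29 ± 0.14, adjusted P = 1.77e-09). The times did not overlap. The subunits orc1.L (-0.33 and -0.50), orc2.S (-0.44 and -0.93) and orc4.L (-0.38 and -0.47) fell as well, with orc1.L and orc4.L not lower on TPM as deposited in frog 1. By contrast orc3.S changed by -0.05 (adjusted P = 0.641) and less than 0.01 (adjusted P = 0.993), and orc6.L by 0.07 (adjusted P = 0.553) and 0.27 (adjusted P = 0.00243, -0.52 on TPM as deposited).

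The licensing loaders showed no fall. The Cdc6 message cdc6.S went from 163, 154 and 150 to 176, 177 and 169 TPM in frog 1 (0.16 ± 0.04, adjusted P = 0.000826) and from 144, 146 and 149 to 170, 177 and 168 TPM in frog 2 (0.23 ± 0.04, adjusted P = 2.1e-06). These libraries did not overlap between the times. The L copy changed by 0.10 (cdc6.L, adjusted P = 0.112) and 0.34 (adjusted P = 2.82e-08). The Cdt1 messages cdt1.L and cdt1.S did not pass the test in frog 1 (0.02 and 0.03). They rose by 0.16 and 0.18 in frog 2, where the rises of cdc6 and cdt1 copies turned into falls on TPM as deposited. Their inhibitor moved the other way in one copy only: gmnn.L (chromosome 6L, 101879704 to 101894034) went from 421, 403 and 401 to 249, 224 and 271 TPM in frog 1 (-0.72 ± 0.12, adjusted P = 1.53e-05). In frog 2 it went from 359, 366 and 397 to 231, 259 and 232 TPM (-0.63 ± 0.08, adjusted P = 9.45e-08), and neither frog showed overlap. The S copy (chromosome 6S, 83354854 to 83361818) changed by -0.11 (adjusted P = 0.407) in frog 1 and rose by 0.33 (adjusted P = 9.79e-05) in frog 2, the latter being -0.48 on TPM as deposited.

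Within the MCM2-7 helicase itself, 2 of 11 members tested fell in both frogs and 4 rose, where 13.1% of all genes tested in both fell and 14% rose. After rescaling, subunits of one hexamer thus went in different directions. The risers mcm7.L (230 to 261 TPM, 0.18, adjusted P = 0.000539, and 213 to 262 TPM, 0.30, adjusted P = 4.47e-09) and mcm7.S (0.22 in each frog) were already the most abundant subunit, and both were lower on TPM as deposited in frog 2 (-0.51 and -0.58). The fallers were mcm3.L (50.4 to 37.6 and 48.6 to 37.2 TPM, -0.41 and -0.38) and mcm5.L (48.1 to 41.5 and 49.9 to 41.7 TPM, -0.21 and -0.25), neither of which was lower on TPM as deposited in frog 1 (0.01 and 0.21). The test was passed in neither frog by mcm2.L (50.5 to 51.8 and 46.3 to 48.5 TPM), mcm4.L (54.5 to 46.4 and 46.7 to 42.9 TPM) and mcm6.2.L (44.4 to 42.0 and 44.2 to 41.0 TPM). The S copy mcm4.S fell by 0.36 in frog 2 only, a difference between frogs that was not tested.

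Of the Mcm6 genes, both copies of mcm6 were scarce and rose. The 3 libraries of frog 1 held 0.483, 0.530 and 0.332 TPM of mcm6.L at 5.5 hpf and 1.57, 1.63 and 1.44 TPM at 7.5 hpf (0.82 ± 0.16, adjusted P = 8.32e-05), and those of frog 2 held 0.814, 0.508 and 0.476 TPM and then 1.16, 1.86 and 1.80 TPM (0.70 ± 0.14, adjusted P = 0.000103). No library at 7.5 hpf fell within the range at 5.5 hpf. On TPM as deposited the change of mcm6.L was positive too (0.95 and 0.29), but no member passed the test as higher in frog 2 on that scale. The S copy went from 0.915, 0.857 and 1.17 to 1.55, 1.69 and 1.83 TPM (0.44 ± 0.13, adjusted P = 0.00817) and from 0.507, 0.821 and 0.548 to 1.03, 1.67 and 1.68 TPM (0.59 ± 0.12, adjusted P = 9.51e-05). RefSeq gives mmcm6 as another name of mcm6.L and zMCM6 as another name of mcm6.2.L, and in *Xenopus* those names stand for a maternal and a zygotic form. In these libraries the gene with the zygotic name was the abundant one at each time, and the gene with the maternal name stayed under 2 TPM, although reads of related copies can be divided between them by the counting.

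The elongation machinery changed less evenly. Both copies of pcna, the sliding clamp, fell: pcna.L went from 151, 176 and 142 to 103, 115 and 108 TPM in frog 1 (-0.52, adjusted P = 0.000249) and from 178, 205 and 212 to 127, 158 and 134 TPM in frog 2 (-0.50, adjusted P = 0.00807). The libraries of these times did not overlap. The S copy pcna.S went from means of 133 to 68.5 and 160 to 106 TPM (-0.95 and -0.60). Of its loader, replication factor C, rfc1.L rose by 0.22 in frog 1 (0.05 in frog 2, adjusted P = 0.442). None of the 6 rfc members changed in both frogs, where 13.1% of genes fell and 14% rose. These are too few members to tell from those shares. The subunits rfc3.L and rfc4.L passed the test in frog 1 only, falling by 0.23 and 0.22. On TPM as deposited these falls in frog 1 turned into upward changes of 0.19 and 0.21. The difference between frogs was not tested. Of polymerase epsilon, pole2.L (-0.49 and -0.60) and pole3.L (-0.40 and -0.32) fell. So did prim2.S of polymerase alpha-primase (-0.61 and -0.53) and rpa2.S of RPA (-0.30 and -0.68). On TPM as deposited pole3.L and rpa2.S were not lower in frog 1. The Okazaki fragment enzymes fen1.L, a flap nuclease, and lig1.L, the ligase, fell by 0.51 and 0.80 and by 0.15 and 0.25. On TPM as deposited the lig1.L change in frog 1 was upward, at 0.28. The remaining members of these classes, among them pola2.L, prim1.S and rpa1.L, changed in at most one frog.

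A part of these falls was seen by 6.5 hpf. At that time 17 members of frog 1 and 18 of frog 2 were already lower than at 5.5 hpf (8.97 and 10.1% of genes) and 2 and 6 were higher (7.68 and 11.4% of genes). Both frogs shared 8 lower members, cdc45.L, cdc7.L, fen1.L, gins1.S, mcm5.L, orc5.L, pole2.L and ticrr.L (11.8%, against 2.28% of genes), and no higher one (3.25% of genes). Of these 8, gins1.S was lower in both frogs on TPM as deposited too. The others were higher in frog 1 on that scale, by 0.13 (orc5.L) to 0.50 (mcm5.L), and lower in frog 2. The steepest early fall was again that of gins1.S, which had reached 5.72, 5.91 and 7.04 TPM in frog 1 (-1.48, adjusted P = 4.02e-07) and 10.2, 8.50 and 10.6 TPM in frog 2 (-1.01, adjusted P = 0.00038), below every library at 5.5 hpf. For topbp1.L the first hour brought a change of -0.25 in frog 1 (adjusted P = 0.0787, 0.42 on TPM as deposited) and -0.72 in frog 2 (adjusted P = 1.46e-06), and for mcm10.L of -0.07 (adjusted P = 0.492) and -0.50 (adjusted P = 0.000482). Without pool 2 of every group of frog 1 the number of members that passed the test in that frog went from 19 to 6 at 6.5 hpf and from 38 to 23 at 7.5 hpf, and without pool 1 it was 10 at 6.5 hpf. In frog 2 the count at 6.5 hpf went from 24 to 14 without pool 1 and to 15 without pool 2.

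The direction of the smaller changes rested on the rescaling. On TPM as deposited the median of all genes moved between 5.5 and 7.5 hpf by 0.39 in frog 1 and by -0.69 in frog 2. By the limma test the members of frog 1 then split into 8 lower and 37 higher. Those of frog 2 split into 65 lower and 0 higher. At 6.5 hpf the medians were 0.61 and -0.34, with 1 member lower and 57 higher against 60 lower and 0 higher. Shares of all genes that passed on that scale are not given here, so these counts are not read as a property of the members. For the change to 7.5 hpf only 19 of 68 members had the same sign in both frogs as deposited, against 57 of 68 after rescaling. For the change to 6.5 hpf 34 of 68 had the same sign after rescaling. Of the 25 members that fell in both frogs, 16 had a negative change on both scales in both frogs, counted by sign alone and not by the test. Among them were gins1.S (-1.55 and -2.55 as deposited), cdc7.L (-0.96 and -2.66), topbp1.L, ticrr.L, ticrr.S, orc5.L, cdc45.L, mcm10.L, gmnn.L, pcna.L and pcna.S. Some of these changes were small as deposited in frog 1, as for pcna.L (-0.08). Of the 5 risers, mcm6.L and mcm6.S kept a positive sign on both, without passing the test as deposited in frog 2.

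**Figure D2:**
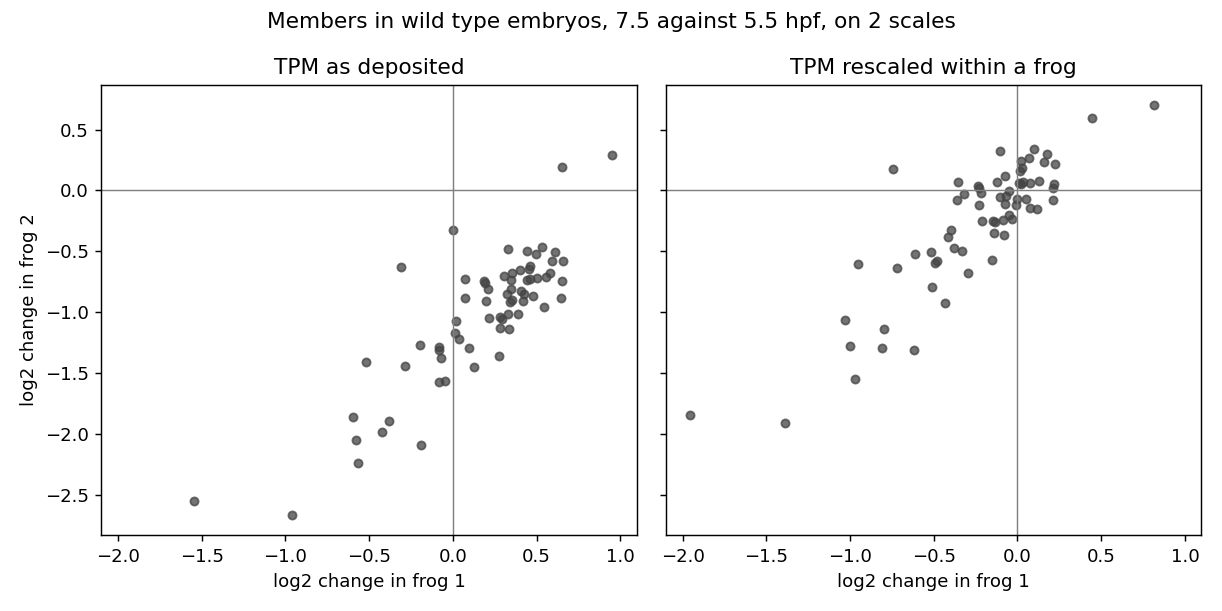
Log2 change of the 68 members between 7.5 and 5.5 hpf in wild type embryos, frog 1 on the x axis and frog 2 on the y axis, with TPM as deposited (left) and TPM rescaled within a frog (right). On the left 19 members, and on the right 57, have the same sign in both frogs.

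Ratios of 2 members within one library do not depend on the scaling. These pairs were picked once the values had been seen. The ratio of gins1.S to gins2.L, subunits of one complex, was 0.345, 0.543 and 0.288 at 5.5 hpf and 0.0797, 0.0842 and 0.0861 at 7.5 hpf in frog 1, a 4.71-fold fall of the mean, and it fell 3.80-fold in frog 2. The ratio of cdc7.L to its partner dbf4.L went from 0.490 to 0.196 and from 0.568 to 0.146, a 2.51-fold and 3.89-fold fall. The ratios of other pairs fell too: topbp1.L to rif1.S fell 2.105-fold and 3.52-fold, ticrr.L to cdt1.L 2.07-fold and 2.82-fold, and mcm10.L to mcm2.L 1.58-fold and 2.67-fold. In each of these 5 pairs, and for gmnn.L to gmnn.S (1.53-fold and 1.94-fold), no wild type library at 7.5 hpf overlapped those at 5.5 hpf.

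Homeologs of one name kept their proportions in some pairs and not in others. The L share of the Geminin messages in frog 1 was 54.5 ± 2.18% (SD, n = 3), 51.3 ± 2.34% and 43.8 ± 3.69% at the 3 successive times. In frog 2 it was 55.5 ± 0.175%, 50.3 ± 1.05% and 39.1 ± 2.04%, so that the S copy came to be the larger one. The L share of fen1 went from 63.6 to 54.5% and from 79.5 to 64.6%. Shares of mcm7 (69.1 to 68.4% and 67.0 to 68.2%), cdt1 (63.9 to 63.8% and 66.4 to 66.1%) and cdc6 (57.5 to 56.5% and 58.7 to 60.6%) moved by at most 2 percentage points. With both copies summed, Geminin messages fell by 0.41 in frog 1 (adjusted P = 0.00171) and changed by -0.13 in frog 2 (adjusted P = 0.105), ticrr fell by 0.95 and 1.25, pcna by 0.70 and 0.55, and mcm6 rose by 0.80 and 0.85. Shares rest on how the counting divides reads between near-identical copies.

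**Figure D3:**
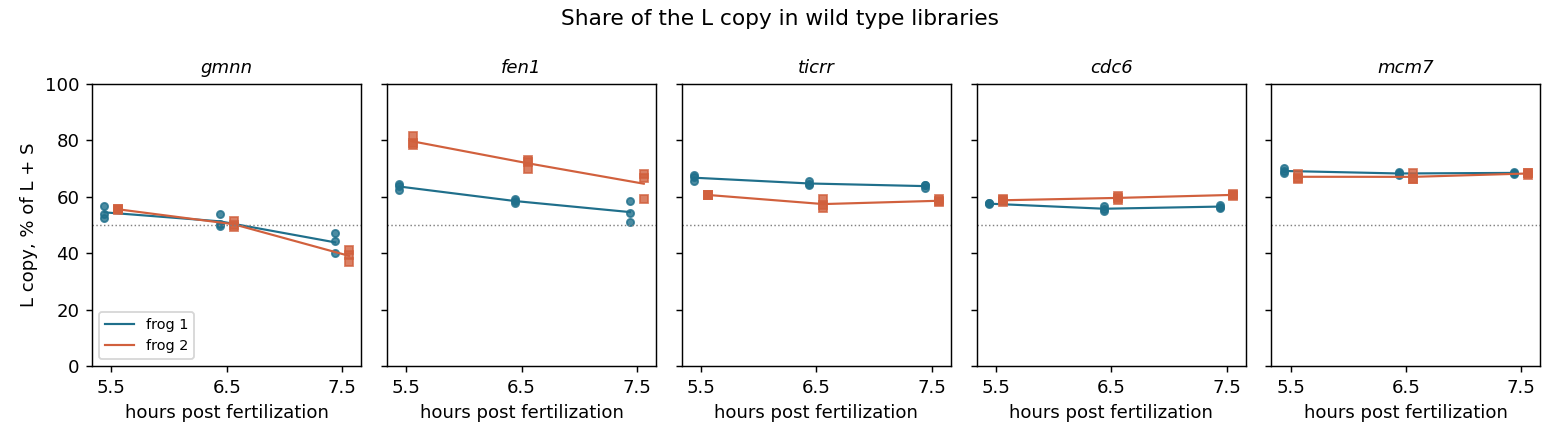
Share of the L copy in the summed L and S values of 5 gene pairs, in percent, in each wild type library at 5.5, 6.5 and 7.5 hpf (points, libraries; lines, means; frog 1 blue circles, frog 2 orange squares; dotted line, equal copies). For gmnn the share of frog 1 went from 54.5 to 43.8% and that of frog 2 from 55.5 to 39.1%, and for mcm7 they went from 69.1 to 68.4% and from 67.0 to 68.2%.

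Of 86 other replication genes (fork protection, checkpoint, replication-coupled chromatin assembly, nucleotide supply, E2F factors and cyclins), 84 were tested in both frogs. Between 5.5 and 7.5 hpf 23 of them (27.4%) fell in both frogs and 15 (17.9%) rose, against 13.1 and 14% of all genes tested in both. Those that fell included the checkpoint mediator clspn.S (-1.03 and -1.65), the kinase gene cdk2.L (-0.84 and -0.79) and the maintenance methyltransferase dnmt1.L (-0.64 and -1.002), and those that rose included the cyclin E gene ccne2.L (1.79 and 3.12), the repressor e2f7.L (1.73 and 1.86) and the kinase gene wee1.L (0.94 and 0.91). Their median change was -0.01 in frog 1 and -0.09 in frog 2.

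Treated embryos were then compared with controls, the question being whether reduced H3K4 methylation altered these messages. Only the window comparison was designed to limit the reduction to the time before ZGA. The paper states that its interference does not tell H3K4me2 from H3K4me3. At 5.5 hpf no member passed the limma test in the window or the persistent comparison in either frog (0.299 and 0.0147% of genes in the window comparison of frog 1 and frog 2, 0.13 and 0.0147% in the persistent one). At an unadjusted P under 0.05 there were 11 and 4 of 68 members in the window comparison, beside 2215 of 20744 and 970 of 20428 genes. In the persistent comparison there were 9 and 1 members, beside 2295 and 888 genes. At 6.5 hpf the only member to pass was pold1.L, the catalytic subunit of polymerase delta, in the window comparison of frog 1 (0.053% of genes higher, 0.313% changed in either direction). There Control+IAA held 25.3, 28.9 and 24.8 TPM and Treated+IAA 30.3, 32.9 and 33.3 TPM. These libraries did not overlap, but the difference of 0.28 ± 0.06 (adjusted P = 0.0451) no longer passed when any pool number was left out. No member passed in frog 2 (1.29% of genes, 8 members and 2064 of 20428 genes at an unadjusted P under 0.05). None passed in the persistent comparison (0.159 and 1.53% of genes, 0 and 8 members beside 949 and 1865 genes unadjusted).

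At 7.5 hpf treated embryos of frog 2 held more of several messages that had fallen in wild type embryos. In the window comparison 8 members were higher and none lower in frog 2 (3.48% of genes higher, 3.27% lower), namely cdc45.L, lig1.L, mcm10.L, mcm6.2.L, orc1.L, orc4.L, ticrr.S and topbp1.L. In frog 1 none passed (0.632% of genes higher, 1.14% lower), with 10 members and 2232 of 20744 genes at an unadjusted P under 0.05. In the persistent comparison 5 were higher (gmnn.L, mcm10.L, orc1.L, ticrr.L and ticrr.S) and 2 lower (cdc6.L and mcm6.S) in frog 2 (3.14 and 4.06% of genes), and 1 was higher and none lower in frog 1 (0.55 and 1.45% of genes). The number that passed in frog 2 depended on single pools: the 8 of the window comparison went to 3 without pool 1 and to 0 without pool 2 of every group, and the 7 of the persistent one to 2 without pool 2 and to 0 without pool 3. With TPM as deposited they were 0 and 16, all higher (the share of all genes on that scale is not given here).

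The helicase activator gene mcm10.L was the one member higher in treated embryos in both frogs, in the persistent comparison (0.3% of genes). In frog 1 its libraries at 7.5 hpf held 38.8, 33.7 and 38.5 TPM in Wt-IAA, 47.8, 41.4 and 38.3 in Control-IAA, 51.7, 50.0 and 48.5 in Treated-IAA, 43.4, 42.2 and 39.7 in Control+IAA and 46.8, 49.5 and 47.7 in Treated+IAA. Treated libraries lay above their controls with and without auxin, by 0.24 ± 0.06 (adjusted P = 0.0299) without it and by 0.20 (adjusted P = 0.105) with it. In frog 2 the same groups held 20.4, 20.9 and 19.4, then 31.7, 25.4 and 19.7, then 34.2, 32.1 and 34.5, then 25.8, 22.2 and 20.6, then 34.7, 32.9 and 24.6 TPM. Here the persistent groups did not overlap (0.40 ± 0.10, adjusted P = 0.0127) while one Treated+IAA library fell among its controls (0.40 ± 0.10, adjusted P = 0.0143). The difference in frog 1 did not pass without pool 2 or pool 3, with a pseudocount of 0.1 or on TPM as deposited (adjusted P = 0.294), and that in frog 2 did not pass without pool 2 or pool 3. With only the libraries of the comparison neither passed (adjusted P = 0.384 and 0.448). Against mcm2.L in the same library, mcm10.L was higher in treated embryos of frog 1 (1.102 against 0.881 without auxin, 1.04 against 0.814 with it) and of frog 2 (0.766 against 0.572, and 0.643 against 0.481), the groups overlapping only in the last of these. Of the other pairs, treated and control libraries of frog 1 overlapped for gins1.S to gins2.L, cdc7.L to dbf4.L, topbp1.L to rif1.S and ticrr.L to cdt1.L in both comparisons. In frog 2 treated libraries lay above the controls for cdc7.L to dbf4.L and topbp1.L to rif1.S with auxin and for ticrr.L to cdt1.L without it, and overlapped them otherwise.

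Geminin's L copy behaved alike in sign but passed in one comparison. Without auxin, controls of frog 1 held 241, 225 and 221 TPM of gmnn.L and treated embryos 298, 274 and 304 TPM (0.35, adjusted P = 0.181), and controls of frog 2 held 320, 261 and 240 TPM and treated embryos 347, 318 and 335 TPM (0.29, adjusted P = 0.0259). With auxin the values were 231, 241 and 254 against 274, 279 and 278 TPM (0.20, adjusted P = 0.636) and 292, 246 and 232 against 300, 295 and 299 TPM (0.22, adjusted P = 0.116). The groups overlapped only in the persistent comparison of frog 2, where the highest control library exceeded the lowest treated one. The ratio of gmnn.L to gmnn.S was 0.913 against 0.730 and 0.880 against 0.757 in frog 1, without overlap, and 0.847 against 0.698 and 0.797 against 0.720 in frog 2, with overlap.

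Several firing and recognition factors passed the test at 7.5 hpf too, in frog 2 only. In frog 2 topbp1.L held 5.30, 4.74 and 4.62 TPM in Control+IAA and 7.08, 6.53 and 6.09 TPM in Treated+IAA, with no overlap (0.36 ± 0.10, adjusted P = 0.0257), whereas Control-IAA spanned 4.14 to 7.00 TPM and Treated-IAA 6.46 to 6.96 TPM. Its window difference in frog 1 was 0.10 and did not pass. For ticrr.S, Control+IAA held 12.6, 11.3 and 12.6 and Treated+IAA 15.5, 17.1 and 12.7 TPM in frog 2 (0.28, adjusted P = 0.0204), and the persistent difference was 0.27 (adjusted P = 0.027). The origin recognition message orc4.L went from 9.89, 10.1 and 8.15 TPM in Control+IAA to 12.1, 13.4 and 11.0 TPM in Treated+IAA of frog 2 (0.34, adjusted P = 0.0179), and the same groups of frog 1 held 15.0, 14.9 and 13.6 and 16.1, 17.4 and 16.7 TPM, which did not overlap but did not pass (0.19). Chosen after their values were seen, orc1.L was higher in frog 2 by 0.15 (window) and 0.19 (persistent), cdc45.L by 0.24 (window) and lig1.L by 0.18 (window).

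A few members went the other way or differed between frogs. In the persistent comparison of frog 2, cdc6.L was lower in treated embryos after rescaling, at 232, 230 and 230 TPM against 254, 262 and 278 TPM (-0.20 ± 0.04, adjusted P = 0.00272). On TPM as deposited the means of frog 2 were alike, at 185 ± 11.6 TPM (SD, n = 3) in treated embryos and 186 ± 6.30 TPM in controls. In frog 1 the rescaled difference of cdc6.L was -0.12 (adjusted P = 0.273). The scarce mcm6.S was lower too in frog 2, at 0.966, 1.17 and 0.718 against 1.299, 1.48 and 1.80 TPM (-0.37, adjusted P = 0.0498). These 2 groups of libraries did not overlap. Neither cdc6.L nor mcm6.S passed without pool 3, or with only the libraries of the comparison. For mcm6.2.L the window difference had opposite signs, with 45.2, 43.7 and 45.6 TPM in controls and 37.0, 42.2 and 34.3 TPM in treated embryos of frog 1 (-0.25, adjusted P = 0.246), and 36.5, 39.7 and 39.1 TPM against 44.7, 45.1 and 45.2 TPM in frog 2 (0.22, adjusted P = 0.00271).

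**Figure D4:**
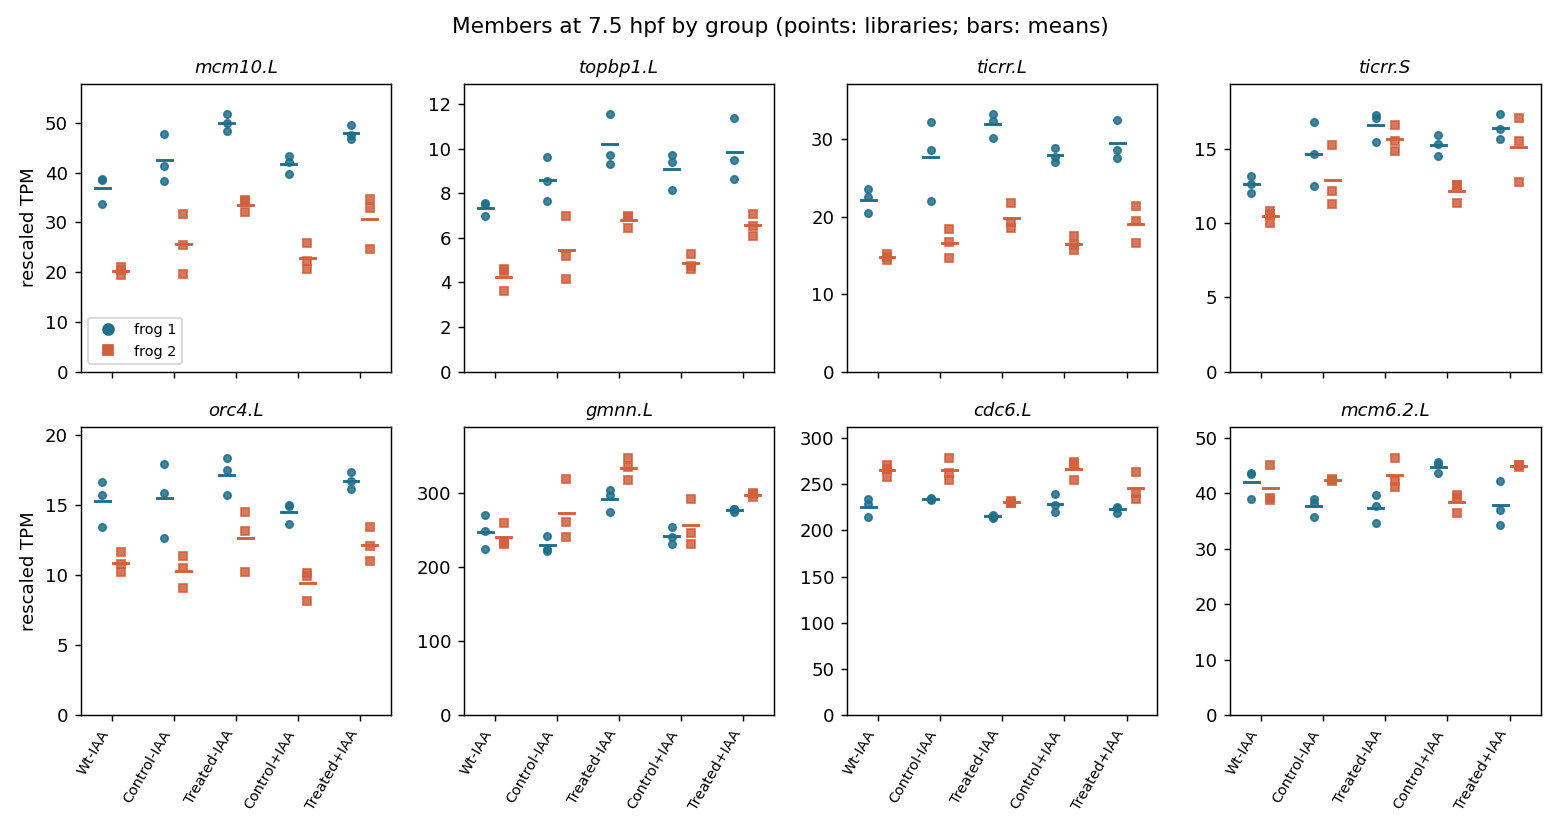
Rescaled TPM of 8 members in each library at 7.5 hpf by condition (points, libraries; bars, means of 3 pools; frog 1 blue circles, frog 2 orange squares). For mcm10.L the Treated-IAA libraries lie above all Control-IAA libraries in each frog (at least 48.5 against at most 47.8 TPM, and at least 32.1 against at most 31.7 TPM), and for mcm6.2.L Treated+IAA lies below Control+IAA in frog 1 and above it in frog 2.

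The 25 members that had fallen in wild type embryos of both frogs are described together, without a test. In the window comparison at 7.5 hpf 15 of them had a positive difference in frog 1 and 19 in frog 2, with medians of 0.04 and 0.16, and in the persistent comparison 22 and 19, with medians of 0.15 and 0.10. All 2566 genes that fell in both frogs had medians of 0.08 and 0.12 (73.8 and 81.5% positive) and of 0.12 and 0.10 (86.6 and 77.1% positive). Of the 25, none and 7 were higher in the window comparison and 1 and 5 in the persistent one, where 3.98 and 13.8% and 4.05 and 13.5% of those genes were higher.

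When the persistent difference at 7.5 hpf was subtracted from the window one, no member passed the limma test (0.00964% of genes in frog 1 and 0% in frog 2). At an unadjusted P under 0.05 there were 3 and 9 members, beside 865 of 20744 and 1659 of 20428 genes. Auxin in control-injected embryos, Control+IAA against Control-IAA at 7.5 hpf, changed no member either (0.00964 and 0.0196% of genes), with 3 and 12 members beside 1294 and 1912 genes unadjusted. This comparison also holds the degradation of the tagged control proteins, and no uninjected embryos met auxin. At 5.5 hpf no member passed in it (0.829 and 0% of genes, 9 and 7 members beside 3333 and 1768 genes unadjusted). At 6.5 hpf none passed in frog 1 (0% of genes, 6 members beside 1765 genes unadjusted). In frog 2 pold2.L was higher (0.783% of genes), at 69.9, 67.1 and 68.6 against 60.4, 58.2 and 63.1 TPM (0.18, adjusted P = 0.0306). Injection of the control mixture, in Control-IAA against Wt-IAA at 7.5 hpf, left ticrr.L higher (0.29, adjusted P = 0.0201, 3.67% of genes higher) and mcm5.L lower (-0.29, adjusted P = 0.00865, 1.51% of genes lower) in frog 1, and ticrr.S (0.27, adjusted P = 0.0412) and lig1.L (0.16, adjusted P = 0.00828, chosen after its values were seen) higher in frog 2 (2.58% of genes higher, 1.43% lower). These comparisons share the Control-IAA libraries with the persistent one. The ticrr.L libraries of Control-IAA in frog 1 spread from 22.1 to 32.3 TPM, and without pool 2 no member passed there, while in frog 2 none passed without pool 1 or pool 2.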

How the data were processed

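Per the labels and the study's methods, the authors pseudoaligned stranded, rRNA-depleted reads with kallisto 0.48 to Xenbase v10.1 transcripts and summed them to genes in R 4.3.2. The deposited values are TPM, one table per frog, and DESeq2 1.42.1 served the authors for their own tests. Here entries sharing a name were summed (2269 and 2204 entries), 806 unnamed entries of frog 2 (at most 0.0744% of TPM) were left out, and TPM were rescaled within a frog by median ratios (taken where a gene averaged 10 TPM or more). Genes reaching 1 TPM in 3 or more libraries (20744 and 20428) were fitted as log2(rescaled TPM + 1) with limma 3.58.1 (R 4.3.3, 15 group means, 45 libraries and 30 residual degrees of freedom per frog, empirical Bayes with trend, two-sided, Benjamini-Hochberg over all genes, threshold 0.05). The script was tested on simulated data. No library pair was identical. Named members were those of fixed names (topbp1, ticrr, dbf4b, cdc6, cdt1, gmnn, mcm2 to mcm7, pcna), up to 6 in each direction that passed in both frogs, up to 3 that passed in one frog where fewer than 3 passed in both, and the highest and lowest of each role. Others were chosen after their values were seen, and only some are marked so where they appear. Unmarked ones include rfc1.L, rfc3.L, rfc4.L, orc3.S, orc6.L, gins2.L, gins3.L and gins4.L. Members and lists were chosen with earlier results of these data known. Alternatives were TPM as deposited, a pseudocount of 0.1, no filter, only the contrast's libraries, summed copies, pool number as a block, and each pool number left out. Symbols of 68 members matched RefSeq (Xenopus_laevis_v10.1), whose coordinates are given; mcm6.S did not. Sequences were not used here. Plots were drawn with matplotlib 3.10.9.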

Additional observations from a re-analysis of the deposited data

Results flagged for a closer look

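For these members the compared libraries did not overlap in either frog, and the direction was opposite between frogs. The difference between frogs was not tested, nor was the share of all genes doing so counted. Within one frog and direction, genes without overlap made up 16.7 to 18.7% in wild type at 6.5 hpf and 23 to 27.8% at 7.5 hpf. They made up 5.49 to 8.41 and 8.59 to 11.6% in the window comparison at 5.5 and 7.5 hpf, and 6.04 to 6.65% for auxin in controls at 7.5 hpf. In wild type embryos pold2.L, a polymerase delta subunit, changed by 0.11 in frog 1 and -0.13 in frog 2 at 6.5 hpf and by 0.21 and -0.082 at 7.5 hpf (log2 scale, against 5.5 hpf). The polymerase delta subunit pold3.L changed by -0.18 and 0.17 at 6.5 hpf, and the signs were exchanged on TPM as deposited (0.52 and -0.22). The largest gap was that of pole4.L, a histone-fold subunit of polymerase epsilon, with -0.74 and 0.18 at 7.5 hpf, but on TPM as deposited both frogs were lower (-0.31 and -0.63). Its window difference at 5.5 hpf was 0.13 and -0.26 (-0.051 and -0.19 as deposited). The RPA subunit rpa2.L changed by 0.11 and -0.16 at 7.5 hpf. Under auxin in controls at 7.5 hpf dbf4b.L differed by -0.10 and 0.10, and mcm6.2.L by 0.25 and -0.14 (0.23 and -0.0012 as deposited). In the window comparison at 7.5 hpf mcm6.2.L differed by -0.25 and 0.22 and the clamp loader subunit rfc5.S by -0.11 and 0.0865. Control+IAA libraries enter both mcm6.2.L differences.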

How the results depend on the processing

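TPM as deposited changed the most. Reversals were listed for 81 changes of named members only. On that scale these of them reversed in frog 1 at 6.5 hpf: cdc45.L 0.29, cdc7.L 0.18, fen1.L 0.28, mcm3.L 0.36, mcm5.L 0.50, orc5.L 0.13, pcna.L 0.11 and ticrr.L 0.41. At 7.5 hpf dbf4b.L 0.30, mcm3.L 0.0132 and mcm5.L 0.21 reversed in frog 1. Outside that list, other members that had fallen in both frogs were also positive there: lig1.L 0.28, mtbp.S 0.28, rpa2.S 0.12, orc1.L 0.098, orc4.L 0.035 and pole3.L 0.017. In frog 2 cdc6.L -0.24, cdc6.S -0.29 and cdt1.L -0.30 reversed at 6.5 hpf, and cdc6.L -0.46, cdc6.S -0.58, cdt1.L -0.65, cdt1.S -0.62, gmnn.S -0.48, mcm7.L -0.51 and mcm7.S -0.58 at 7.5 hpf. The members that passed then numbered 58 and 60 in wild type at 6.5 hpf, 65 at 7.5 hpf in frog 2, 16 in the persistent comparison of frog 2 at 7.5 hpf and 1 at 6.5 hpf, and 0 for control against wild type at 7.5 hpf (both frogs), persistent 7.5 hpf in frog 1, window 6.5 hpf in frog 1 and window 7.5 hpf in frog 2. With only the libraries of the contrast, a fit with fewer samples, 0 members passed for control against wild type and for the persistent comparison at 7.5 hpf in both frogs, for window 6.5 hpf in frog 1 and for window 7.5 hpf in frog 2. A pseudocount of 0.1 left 0 for persistent 7.5 hpf and window 6.5 hpf in frog 1, and no filter left 0 for the latter. Summed copies left 1 for control against wild type in frog 2. Pool numbers did not pair libraries (correlations of deviations at most 0.0954); with pool number as a replicate block, 1 member passed for control against wild type in frog 2, 8 for window 7.5 hpf in frog 2, and of 81 changes of named members 80 kept their call. Leaving out each pool number gave 6 to 18 and 14 to 24 members in wild type at 6.5 hpf (frog 1 and 2, 15 without pool 2 of frog 2), 23 to 32 and 37 to 40 at 7.5 hpf, 0 to 4 and 0 to 6 for control against wild type at 7.5 hpf, 0 to 1 and 0 to 10 for persistent 7.5 hpf, 0 to 2 and 0 to 8 for window 7.5 hpf (3 without pool 1 of frog 2) and 0 to 0 for window 6.5 hpf in frog 1. None of the 81 changes of named members reversed under any alternative other than TPM as deposited. The cause of these changes was not tested, and shares of all genes that passed under each alternative are not given here. TPM without depth limit what can be said of members under 1 TPM.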
